A study of Drosophila melanogaster with 6 samples.

Results

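The products of 8 clock-related genes act on proteins after they are made, and their transcripts were followed in cultured fly cells given the clock activator Clk: the kinase gene dco, the ubiquitin pathway genes slmb, jet, Cul3, ctrip and Usp8, and the phosphatase subunit genes wdb and tws. Members were probe sets, groups of short probes read as 1 signal. Every probe set that the array annotation gives to 1 of these 8 genes, under its current symbol or a synonym, was taken. All 8 genes were found, of 11982 with a probe set of their own, by 12 probe sets of 18769 that are not array controls. The cells were Drosophila S2 cells, a line from embryos that resembles haemocytes (blood cells), and their total RNA was hybridised to 6 Affymetrix arrays. It was collected 48 h after transfection, with 2 arrays for the control, 2 for 10 ng of pAc-Clk, 1 for 30 ng and 1 for 100 ng. The study's design text names an empty vector as the control, and pAc-Clk is a plasmid that carries Clk. Nothing in the labels says that replicates were separate cultures, and p-values then reflect only how these arrays scatter, which could be technical. Each array averages all cells collected, transfected or not, so fewer cells of a kind and less RNA per cell cannot be told apart.

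In the fly clock, Clk pairs with Cyc to switch on per and tim, and the Per and Tim proteins then accumulate and block Clk-Cyc. The length of the cycle depends on how fast these proteins are phosphorylated and destroyed. The casein kinase 1 encoded by dco (doubletime) phosphorylates Per, and Slmb, the F-box subunit of an SCF ubiquitin ligase, recognises phosphorylated Per and sends it to the proteasome. Protein phosphatase 2A removes phosphates from Per, and tws and wdb encode alternative regulatory subunits that direct it to substrates. The F-box protein Jet takes part in the destruction of Tim after light, and the scaffold Cul3 acts on Tim in another ubiquitin ligase. The ligase encoded by ctrip limits the Clk protein, and the deubiquitinase Usp8 acts on Clk as well. Most of these proteins also serve other pathways, and a transcript level does not measure them.

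The arrays showed haemocyte-type cells in which the Clk target tim responded, and the high-dose arrays stood apart. All 12 haemocyte markers, among them Hml and Pxn, read above the highest of the array's Tag controls, probe sets that detect no fly transcript and serve here as the background level, on all 6 arrays. Of the markers of other cell types, 3 of 4 for neurons, 1 of 3 for muscle, 1 of 3 for fat body and 1 of 3 for the germline did so, while vas, Mlc2 and Yp1 were at background on every array. The summed neuron markers read 6.74 and 6.90 (log2) in controls, 6.55 and 6.90 at 10 ng, and 6.89 and 7.86 on the 30 and 100 ng arrays, and the germline markers 7.68 and 7.71, 7.85 and 7.52, 8.31 and 9.61. The neuron sum followed mainly elav (6.09 and 6.34 in controls, 7.53 at 100 ng), whereas brp read 4.26 and 4.34 in controls and 4.17 at 100 ng. The germline sum followed bam alone (7.47 and 7.55 in controls, 9.57 at 100 ng), whereas osk read 4.44 and 4.07 in controls and 3.49 at 100 ng. Haemocyte markers went both ways at 100 ng. There Pxn read 10.58 against 14.05 and 14.22 in controls, and Ppn 10.05 against 8.33 and 8.30. The part of these markers in the results at high dose was not tested. The brighter tim probe set read 3.27 and 4.03 in controls and 8.56 and 8.18 at 10 ng (log2 change 4.72, limma adjusted p = 5.28e-05). Testing required a signal of 4 on at least 2 arrays. This probe set reached it on 1 control array only, so it was tested through its Clk arrays. It passed in 13 of 16 settings, and its call was lost at face value (adjusted p = 0.277), with no filter (0.604) and without 10 ng replicate 1 (0.0598). The 5' minus 3' signal of 3 control transcripts (actin, eIF-4a and GAPDH) averaged -0.75 on both control arrays and -1.25 and -0.64 at 10 ng, but -9.40 at 30 ng and -8.25 at 100 ng. Each high dose is 1 array, so its dose and its low 5' signal cannot be told apart.

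All 8 genes were read above background in S2 cells by at least 1 probe set. Signals are on a log2 scale inferred from the deposited values; if those values were taken at face value, every difference would be 1.44 times as large. Of the 12 probe sets, 9 reached a signal of 4 or more on at least 2 arrays and were tested, all of them through the control arrays as well. The 3 that did not pass were 1 of the 2 Cul3 probe sets and 2 of the 3 ctrip probe sets. The second Cul3 probe set (1632211_at) stayed between 2.37 and 2.69, under the highest Tag control of every array. The ctrip probe set 1637344_at likewise stayed between 2.22 and 2.42, and 1624574_at between 2.95 and 3.18, above the highest Tag control on 3 of 6 arrays. The gene table used here lists 2 older locus tags for Cul3 and 2 for ctrip, so each was once annotated as separate genes, and which probe set lies in which is not known here.

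At 10 ng, the dose with 2 arrays, none of the 9 tested probe sets passed the test against the control transfection. By limma with Benjamini-Hochberg adjustment over 8446 probe sets, 0 of 9 passed in either direction and the smallest adjusted p among them was 0.9998; at an unadjusted p under 0.05 it was also 0 of 9. Over all probe sets 0.0947% were called higher and 0% lower, and 2.06% had an unadjusted p under 0.05. The mean was lower at 10 ng for 8 of the 9 probe sets and higher for 1, where 75.9% of all tested probe sets were lower; after quantile normalization 6 were lower and 3 higher, against 49.4% lower. As deposited the 9 had a median log2 difference of -0.24 against -0.09 over all tested probe sets. For 4 of 9 (Cul3, ctrip, slmb and the brighter wdb probe set) both 10 ng arrays lay below both controls, a pattern that 23.5% of all tested probe sets showed, and 0 of 9 lay above both, against 3.71%. After quantile normalization it was 2 of 9 (ctrip and slmb) against 12%.

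**Figure D1:**
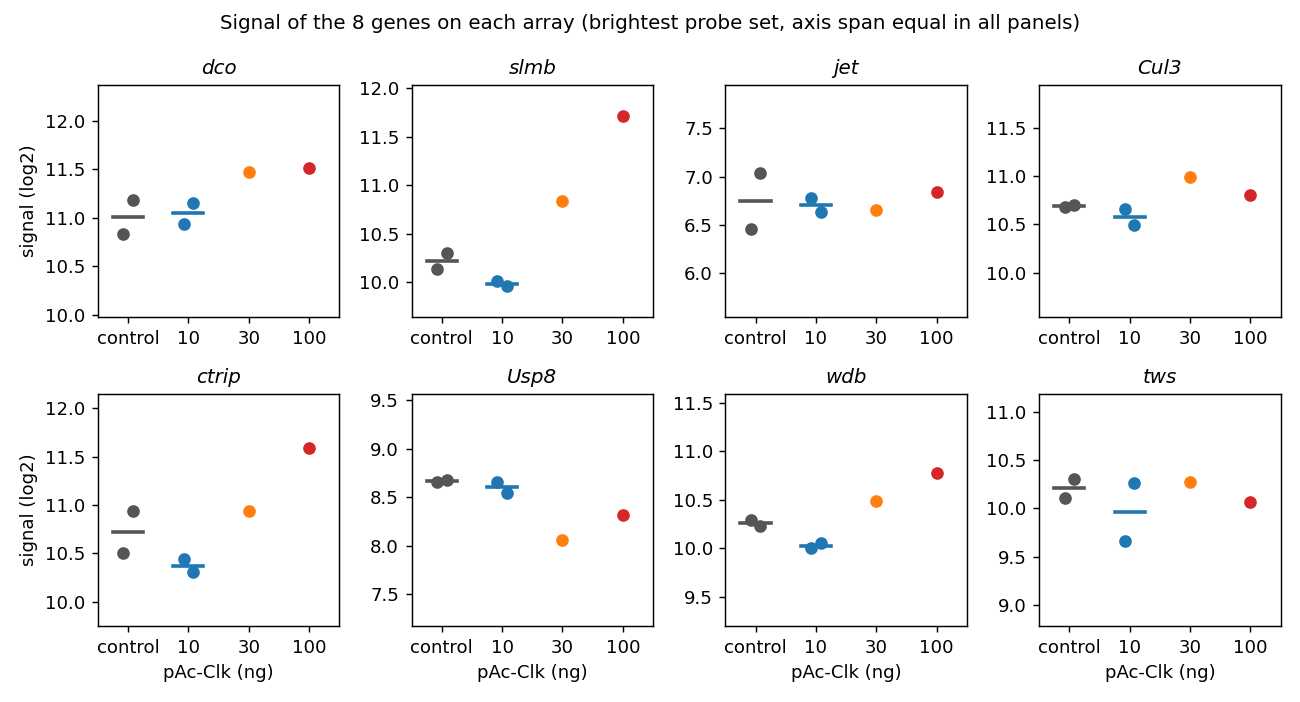
Signal (log2) of the brightest probe set of each of the 8 genes on the 6 arrays, by pAc-Clk dose; points are arrays and bars are means of the 2 arrays. The control and 10 ng arrays span less than 2-fold for each gene, most widely for tws (9.66 to 10.31), and slmb reaches its highest value, 11.72, at 100 ng.

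Of the genes that mark Per for destruction, dco did not pass the test at 10 ng. Its probe set (1624447_s_at) read 10.83 and 11.19 in controls and 10.94 and 11.15 at 10 ng. Both 10 ng arrays fell between the controls. The difference was 0.03 (SE 0.16), with a 95% interval of -0.32 to 0.39, so a change of more than 1.31-fold upward lay outside it. On the single arrays dco read 11.48 at 30 ng and 11.51 at 100 ng, 0.47 and 0.51 above the control mean. Both readings exceeded all 4 control and 10 ng arrays, but did not reach 2-fold. Of all tested probe sets, 48.7% exceeded those 4 arrays at 30 ng and 45.9% at 100 ng. At least as large a rise as that of dco was read for 19.8% and 35%. After median centring dco was 0.10 above the control mean at 100 ng.

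slmb had the highest reading at 100 ng relative to control of all 8 genes, and a low one at 10 ng. Its probe set (1635960_at) read 10.14 and 10.30 in controls and 10.01 and 9.95 at 10 ng. The 10 ng arrays lay just under the controls without passing the test, with a difference of -0.24 (SE 0.14, 95% interval -0.55 to 0.07, adjusted p = 0.9998). The 30 ng array then read 10.83 and the 100 ng array 11.72, which is 0.62 and 1.50 above the control mean, or 1.53-fold and 2.83-fold. The order of the doses was thus 10 ng, control, 30 ng and 100 ng, in which control and 10 ng could not be separated by the test and the other steps rest on 1 array each. At least as large a rise was read for 10.7% of all tested probe sets at 30 ng and for 10.7% at 100 ng. Array scaling moved slmb at 100 ng to 1.65 after quantile normalization and to 1.10 after median centring. The median of all tested probe sets there was 0.04 as deposited, 0.21 after quantile normalization and -0.37 after median centring. slmb stood 1.47 above that median as deposited and 1.44 above it after quantile normalization. Median centring shifts all probe sets of an array alike, so it could not test that distance.

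The genes for enzymes that act on Tim, jet and Cul3, did not pass the test at 10 ng and stayed within 2-fold of control on every array. The jet probe set (1635474_at) read 6.46 and 7.04 in controls, 6.78 and 6.64 at 10 ng, and 6.66 and 6.84 on the 30 and 100 ng arrays. As deposited, all 4 Clk arrays lay between the controls, whose gap of 0.58 was the widest of the 9 tested probe sets. At 10 ng the difference was -0.04 (SE 0.25, 95% interval -0.59 to 0.51). The brighter Cul3 probe set (1624970_s_at) read 10.68 and 10.70 in controls, 10.66 and 10.50 at 10 ng, and 10.99 and 10.80 on the 30 and 100 ng arrays. Its 10 ng arrays lay below both controls, with a difference of -0.11 (SE 0.14, 95% interval -0.42 to 0.19), and the single arrays lay 0.30 and 0.11 above the control mean. At 100 ng both depended on scaling: Cul3 turned to -0.29 after median centring, and jet moved from 0.09 to -0.31 there and to 0.78 after quantile normalization.

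The genes for enzymes that act on Clk, ctrip and Usp8, did not pass the test at 10 ng and read in opposite directions at the high doses. The bright ctrip probe set (1624385_at) read 10.51 and 10.94 in controls and 10.44 and 10.31 at 10 ng, so both 10 ng arrays lay under the lower control. With a difference of -0.35 (SE 0.17, 95% interval -0.72 to 0.02, adjusted p = 0.9998) it was the furthest from 0 at 10 ng after the second wdb probe set, and 3.99% of all tested probe sets lay at least as low. On the single arrays ctrip read 10.94 at 30 ng, at the level of the higher control, and 11.59 at 100 ng, 0.87 above the control mean. Usp8 (1630825_at) read 8.65 and 8.68 in controls, 8.66 and 8.55 at 10 ng, and 8.06 and 8.32 on the 30 and 100 ng arrays. Its difference at 10 ng was -0.06 (SE 0.18, 95% interval -0.46 to 0.33). By brightest probe set, Usp8 read furthest below the controls of the 8 genes at 30 ng (-0.61) and at 100 ng (-0.35). At 30 and 100 ng, 14.6% and 39.3% of all tested probe sets lay at least as low as Usp8, and 40.1% and 25% at least as high as ctrip. These signs held in the 12 settings run, the main one included. Face value, the filters, the floor at the Tag signal and leaving out a 10 ng array could not turn them. Usp8 at 100 ng was -0.08 after quantile normalization. Without control replicate 1, ctrip at 30 ng was 0.0065.

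slmb and Usp8 lie near each other on chromosome arm 3R, with 4 annotated genes starting between them (CG5793, Obp93a, Ice2 and Trm7-34, in the Release 6 plus ISO1 MT gene table). The pair read 1.50 and -0.35 relative to control at 100 ng. Of the genes between, the tested ones read 0.53 (CG5793), -0.99 (Ice2) and -2.16 (Trm7-34) at that dose, so neighbouring genes did not read alike there.

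**Figure D2:**
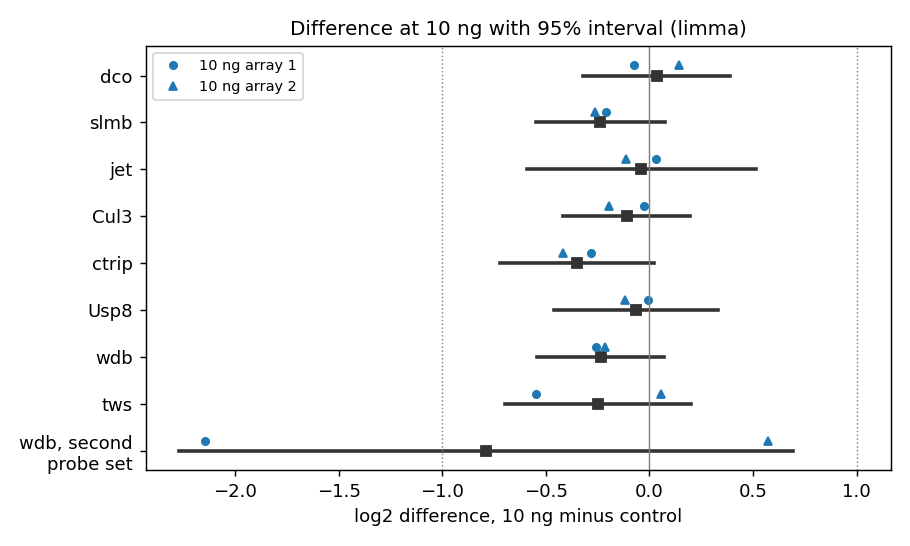
Log2 difference between 10 ng of pAc-Clk and control for the 9 tested probe sets; squares are differences of means, lines are 95% intervals from limma, and blue points are the 10 ng arrays against the control mean. Every interval includes 0, and only that of the second wdb probe set passes the dotted lines at 2-fold.

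The regulatory subunit genes of the phosphatase, tws and wdb, also did not pass the test at 10 ng. The tws probe set (1633501_s_at) read 10.11 and 10.31 in controls and 9.66 and 10.26 at 10 ng. Only the first 10 ng array lay under the controls, and the difference was -0.25 (SE 0.20, 95% interval -0.70 to 0.20). The single arrays, at 10.28 and 10.07, lay within the range of the other 4. The brighter wdb probe set (1626385_s_at) read 10.29 and 10.23 in controls and 10.01 and 10.05 at 10 ng, a difference of -0.24 (SE 0.14, 95% interval -0.54 to 0.07). It read 10.49 at 30 ng and 10.78 at 100 ng, 0.23 and 0.52 above the control mean.

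The second wdb probe set (1629187_s_at) went the other way and was the one member reading past 2-fold at 30 ng. It read 7.98 and 8.40 in controls, 6.04 and 8.76 at 10 ng, and 3.34 and 3.39 on the 30 and 100 ng arrays. The 10 ng arrays lay on either side of the controls, with a gap of 2.72, or 6.58-fold, so the difference of -0.79 (SE 0.66, 95% interval -2.27 to 0.69) was within that spread; it turned to 0.57 without 10 ng replicate 1. At 30 ng it differed from the control mean by -4.85, 28.8-fold lower, and stood 0.17 above the highest Tag control of that array. At 100 ng it was under that control (3.56) and so at least 24.7-fold lower than in control cells. Of all tested probe sets, 0.178% lay at least as low relative to control at 30 ng and 1.87% at 100 ng, without a floor. The arrays with the low readings were those with low 5' signal: 5' minus 3' was -9.40 at 30 ng, -8.25 at 100 ng and -1.25 on the first 10 ng array, against -0.64 on the second. The part of 5' loss in the wdb reading was not tested, and where the 2 probe sets lie in the transcript is not known here.

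**Figure D3:**
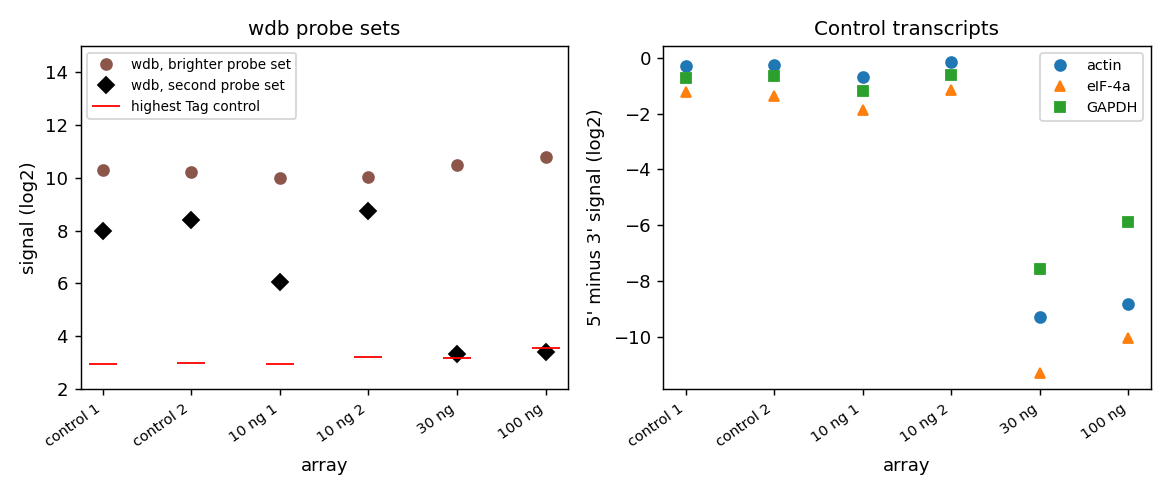
Left, signal (log2) of both wdb probe sets and of the highest Tag control on each array; right, 5' minus 3' signal (log2) of the actin, eIF-4a and GAPDH control transcripts. The second wdb probe set reads 7.98 and 8.40 in controls and 3.34 and 3.39 on the 2 arrays with 5' minus 3' signals of -9.40 and -8.25 on average, where the brighter one reads 10.49 and 10.78.

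Such disagreement between probe sets of 1 gene was measured over the 416 genes with at least 2 tested probe sets. The changes of the wdb probe sets differed by 0.55 at 10 ng and by 5.08 at 30 ng. At least as wide a difference was found for 8.65% and 2.40% of the genes, and the median gene had 0.16 and 0.97. At 100 ng, where the second wdb probe set was at background, they differed by at least 5.15 once dimmer readings were raised to the top Tag control. On that footing 10.8% of the genes were at least as far apart, and the median gene had 2.16. The direction of wdb at high dose therefore depended on the probe set.

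Members past 2-fold, the threshold used for the single arrays, were counted beside all tested probe sets. At 30 ng 0 of 9 probe sets were higher, against 2.04% of all tested probe sets, and 1 was lower (the second wdb probe set), against 8.87%. At 100 ng 1 was higher (slmb), against 21.5%, and 1 lower (the second wdb probe set), against 27.6%. After quantile normalization ctrip also passed, which gave 2 higher and 1 lower, against 28.2% and 24.5% of all. Median centring gave 1 and 1, against 12.3% and 34.4%. The 30 ng array lay above all 4 control and 10 ng arrays for 5 of 9 (dco, slmb, ctrip, Cul3 and the brighter wdb probe set), where 48.7% of all did, and below them for 2 (Usp8 and the second wdb probe set), where 27.1% did. At 100 ng the same probe sets lay above and below, against 45.9% and 42.1%. The 9 had a median difference of 0.22 at 30 ng and 0.11 at 100 ng, beside 0.11 and 0.04 over all tested probe sets. At 100 ng that median turned with scaling, to 0.65 after quantile normalization and -0.29 after median centring, beside 0.21 and -0.37 over all. No test was made on the single arrays, and these comparisons share the control arrays.

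**Figure D4:**
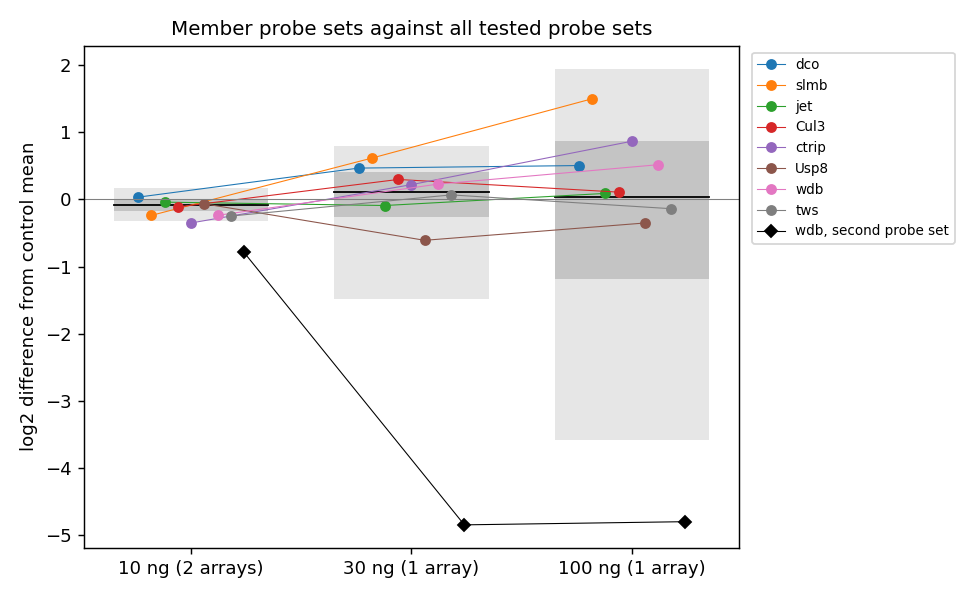
Log2 difference from the control mean at each dose for the 9 tested member probe sets (points joined by thin lines), over the range of all 8446 tested probe sets (light grey, 5th to 95th percentile; dark grey, interquartile range; black line, median). At 100 ng the brightest probe sets of the 8 genes lie between -0.35 and 1.50, inside the light grey range, and the second wdb probe set lies below it.

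The change of each member over the 4 Clk arrays was set against that of the other 6609 tested genes, by brightest probe set. The measure was the root mean square distance of their log2 differences from the control mean. The nearest gene to slmb was hrg (distance 0.04), with 0.58 at 30 ng and 1.50 at 100 ng. The others were CG5986 for dco (0.07), rogdi for ctrip (0.05), muc for wdb (0.03), the casein kinase 1 gene gish for tws (0.12), Ada2b for Cul3 (0.03), CG1603 for jet (0.02) and the cyclin gene CycB3 for Usp8 (0.06). Between 102 genes (tws) and 1216 genes (Cul3) lay within a distance of 0.25 of a member, so none of these patterns was particular to it. The second wdb probe set was not compared, so this does not extend to it.

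Other genes of the same enzyme families did not pass the test at 10 ng either. Of 120 further genes in 7 lists, 97 had a probe set with their symbol alone and 95 were tested, by the brightest probe set of each. Of these 95, 0 were called higher and 0 lower by limma, where 0.0605% and 0% of all 6610 tested genes were, and 3 had an unadjusted p under 0.05, against 1.97% of all. Those 3 were the HECT ligase gene Nedd4 (-0.57, SE 0.17), the Cul3 adaptor gene dbo (-0.43, SE 0.17) and the deubiquitinase gene ec (-0.42, SE 0.18), each with an adjusted p of 0.9998. The kinases sgg, CkIIalpha, CkIIbeta and nmo and the phosphatase catalytic subunit mts, which act with the members on Per and Tim, were not analysed here for want of such a probe set.

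By family, the partners of the members went both ways on the 100 ng array. Over all tested genes 22.1% were past 2-fold higher and 27.1% lower there, and no list was tested against these shares. Of 7 clock and other kinases 0 were past 2-fold higher and 1 lower, Bdbt (-2.15), which encodes a partner of the dco kinase. Pka-R1 and gish differed most at 10 ng (-0.50 and -0.21). Of 9 phosphatase genes 3 were higher at 100 ng (flw at 1.75, PpV at 1.62 and PpD3 at 1.12) and 1 lower, Pp4-19C (-2.72). The protein phosphatase 1 genes flw and Pp1alpha-96A differed most at 10 ng (0.26 and -0.31). Of all lists, flw was the 1 gene past 2-fold higher at 30 ng (1.33), where 2.12% of all tested genes were. Genes with values at high dose in this and the next paragraph, other than those with the largest 10 ng difference of a list, were named after their values were seen.

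Beside the lists below, 22.1% of all tested genes were past 2-fold higher at 100 ng and 27.1% lower. The COP9 signalosome removes Nedd8 from cullins. Of 18 genes for the core of SCF ligases, for Nedd8 and for this signalosome, 2 were higher at 100 ng and 8 lower. The higher ones were the RING subunit Roc1a (2.20) and Nedd8 (1.05), and the lower ones included CSN5 (-2.90) and CSN7 (-2.92), whereas the SCF scaffold Cul1 (0.64) and adaptor SkpA (0.21), which work with Slmb, did not reach 2-fold. Roc1b and CSN7 differed most at 10 ng (0.29 and -0.25). Of 10 other F-box genes 2 were higher and 5 lower, with Fsn and Fbl6 furthest at 10 ng (-0.26 and -0.25). Of 11 other cullins and adaptors 3 were higher at 100 ng (rdx at 2.22, Keap1 at 1.99 and dbo at 1.90) and 2 lower (Cul5 at -1.49, and lute, at background there); Cul2 and dbo were furthest at 10 ng (-0.23 and -0.43). Of 16 genes for ubiquitin, its activating and conjugating enzymes and other ligases 3 were higher and 3 lower, with Nedd4 at 1.87 and, at 10 ng, Nedd4 and ben furthest (-0.57 and -0.29). Of 24 other deubiquitinase genes 6 were higher and 9 lower. Among them Usp7 read 1.83 and Usp5 -3.53 at 100 ng, and ec and faf were furthest at 10 ng (-0.42 and -0.27).

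Over all 95 genes 19 were past 2-fold higher at 100 ng and 29 lower, beside 22.1% and 27.1% of all tested genes. Quantile normalization gave 27 and 24, beside 28.2% and 24.5% of all tested probe sets. Median centring gave 13 and 34, beside 12.3% and 34.4%. Which direction was more frequent thus depended on scaling, for these genes and for all tested probe sets alike. At 30 ng 1 of the 95 genes was higher and 6 were lower, beside 2.12% and 6.91% of all tested genes. The median difference of the 95 genes at 10, 30 and 100 ng was -0.13, 0.13 and 0.11, beside -0.09, 0.15 and 0.05 for all tested genes.

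**Figure D5:**
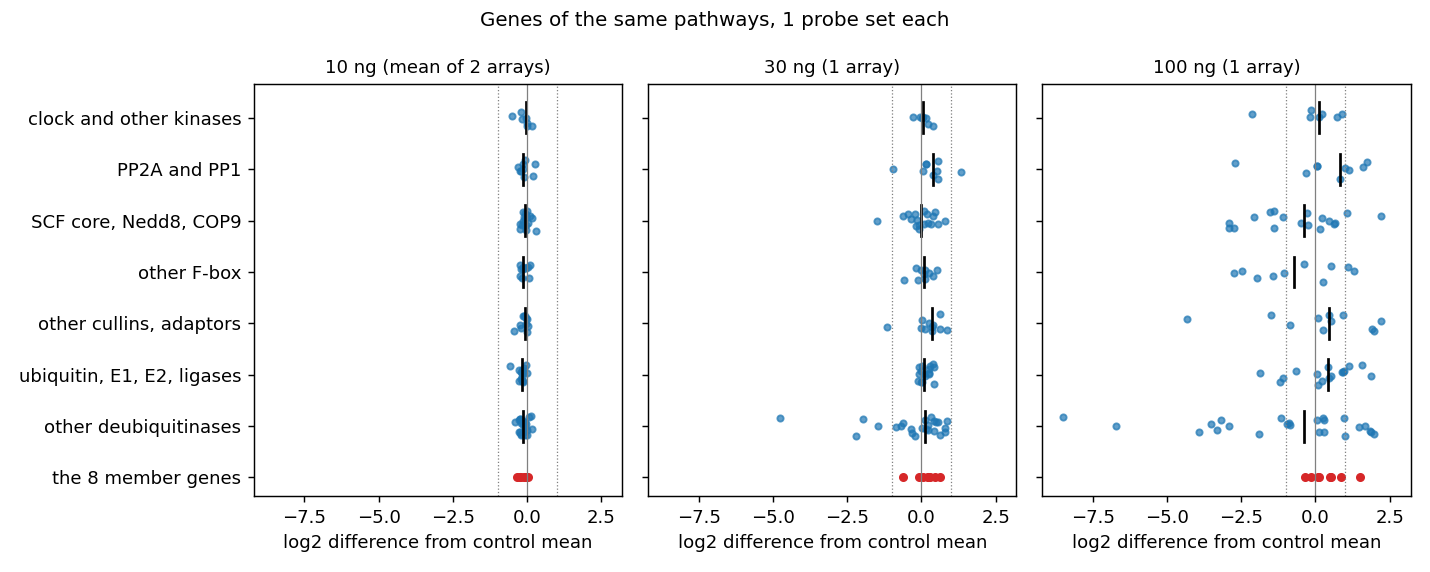
Log2 difference from the control mean at each dose for 95 genes of 7 lists (blue, 1 point a gene; black bars, list medians) and for the 8 member genes (red), by the brightest probe set; dotted lines mark 2-fold. At 10 ng the 95 genes lie between -0.57 and 0.29, and at 100 ng they spread past 2-fold in both directions.

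At 10 ng the arrays would not have resolved small changes of these genes. The 95% intervals of 8 of the 9 probe sets lay within 2-fold in both directions, the exception being the second wdb probe set. In the fit at face value, 6 of the 10 tested there did. Intervals that include 0 do not show that the levels were equal. They are not adjusted for the number of probe sets tested, whereas the calls are. With 2 arrays a group, even a gene whose interval excluded 0 could thus go uncalled.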

How the data were processed

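The authors deposited linear intensities, 1 column per array (0 columns left unassigned), made with GCRMA per the submitters' processing notes, without a version or settings. Their natural log spans 1.69 to 15.85, whereas their log2 at face value reaches 22.86, past the 16 bits of a scanner, so the natural log was read as log2; no source used here states the base. Per the labels, total RNA was extracted with TRIzol and labelled with biotin. Sample titles gave the groups and the replicate numbers. Probe sets were named from the platform annotation, with symbols updated by Entrez ID. Those that reached 4 on 2 or more arrays were tested (8446), leaving out 183 controls.

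limma 3.58.1 in R 4.3.3 (1 coefficient per group, eBayes with an intensity trend; tables read with data.table, version 1.17.8) compared 10 ng with control, with Benjamini-Hochberg adjusted p under 0.05 over all tested probe sets. Residual and prior degrees of freedom were 2 and 7.61. Single arrays were compared by fold alone. The fit was tested on simulated data. Replicates were not copies (5 and 6 of 18952 values identical). Figures used matplotlib 3.10.9 in Python 3.11.15. The members and lists were chosen with earlier results of these data known. Named genes were all members, tim and Clk as checks, the 2 genes of each list with the largest difference at 10 ng, and the gene nearest to each member; further pathway genes and the genes between slmb and Usp8 were named after their values were seen. Clk, the transfected gene, read 2.50 and 2.84 in controls and 3.46, 3.47, 5.07 and 4.66 on the 10, 10, 30 and 100 ng arrays, so both controls were under the highest Tag signals (2.96 and 2.97). The alternatives were face value, no filter, a filter at 6, quantile normalization, median centring, a floor at the Tag signal, a pseudocount of 16, no trend, robust moderation, control and 10 ng arrays alone, a replicate block and leaving out each replicated array. The scaling alternatives for the count of arrays that do not overlap, and the Tag floor for the wdb disagreement, were added after the data were seen.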

Additional observations from a re-analysis of the deposited data

How the results depend on the processing

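At 10 ng, 0 member probe sets (of 9, or of 10 at face value and 12 with no filter) and 0 pathway genes passed in any of the 16 settings (limma, smallest adjusted p among members from 0.257 without 10 ng replicate 2 to 1.00). At face value and with no filter 0 probe sets of any gene passed, so these 2 settings say nothing about the members' stability. Signs turned in some settings. With quantile normalization Usp8 was 0.041 and jet 0.025. Without 10 ng replicate 1, tws and the second wdb probe set turned to higher, from -0.25 and -0.79 in the main setting. Leaving out 1 array gave dco -0.14 to 0.21, jet -0.33 to 0.25, tws -0.55 to 0.055 and the second wdb probe set -2.15 to 0.57. Members past 2-fold higher at 100 ng were 2 in place of 1 (ctrip beside slmb) at face value and with quantile normalization, and 1 to 2 when 1 array was left out, with 2 without control replicate 2. At face value 6 pathway genes in place of 1 were past 2-fold higher at 30 ng. slmb stayed past 2-fold higher at 100 ng in the 12 settings run for that dose, the main one included (1.10 to 2.17). The second wdb probe set stayed past 2-fold lower in them (-6.92 to -3.54). Of these settings, the filters and leaving out a 10 ng array could not move a difference at 100 ng. The Tag floor could not move that of slmb. Probe sets with both 10 ng arrays below both controls were 4 of 9 as deposited, against 23.5% of all tested probe sets. They were 2 with quantile normalization, against 12%, and 3 with median centring, against 20.3%. Control and 10 ng arrays share numbers in the titles, and deviations of same-numbered arrays correlated at 0.334 over tested probe sets, but 2 pairs cannot show pairing. With the number as a block 0 of 9 members passed, as in the fit without it, with infinite prior degrees of freedom and 21 probe sets called higher and 2 lower in all, against 8 and 0. The number of arrays and the loss of 5' signal limit what can be said of 30 and 100 ng.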
